A study of Mus musculus with 20 samples.

Results

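The collagen genes of the mouse hippocampus were described here across age and 11β-HSD1 genotype. A member was any gene whose single annotated symbol was Col, a number, a and a number, and 1 probe set stood for each gene, the brightest on average over the arrays. The rule found 42 collagen genes among 18193 genes with a probe set of 1 symbol, on 82 of 45037 probe sets. Of these, 11 encode fibrillar collagens, 6 encode the basement membrane chains of type IV and 25 encode other types.

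Hippocampal RNA from 20 male mice was measured on Affymetrix arrays of the Mouse Genome 430 2.0 type, 1 mouse per array and 4 mice per group (single mice are written as group and number, as in WT_Y-371). Young mice were 6 months and aged mice 24 months old. Wild-type C57BL/6J mice formed the groups WT_Y (young), WT_AU (aged, memory unimpaired) and WT_AI (aged, memory impaired), and the 8 aged wild-type mice together are WT_A. Mice homozygous for targeted disruption of Hsd11b1, congenic on C57BL/6J, formed KO_Y (young) and KO_A (aged), and the disruption is in every tissue and from birth. Memory status came from the time spent in the newly opened arm of a Y-maze, so WT_AU and WT_AI were chosen by behaviour and not assigned. Hsd11b1 intensity, which checks the genotype labels, was 549.6 to 804.2 in the 12 wild-type mice and 39.5 to 65.2 in the 8 Hsd11b1-/- mice. All 8 hippocampal neuron markers reached an intensity of 100 in at least 2 arrays. Ttr, a choroid plexus gene, ranged from 1142.8 to 21917.7, and Alb, a liver gene, was 1670.4 and 2911.9 in WT_Y-369 and WT_Y-374. Both are markers of tissue other than hippocampus. Their part in the results was not tested, except where a marker covariate is named or those 2 WT_Y mice are left out. Values are intensities on the linear scale after robust multichip averaging, and array medians were 39.4 to 41.3. Such intensities rank mice for one probe set and not one gene against another.

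Collagens are triple helices of 3 chains. Fibrillar collagens such as types I, III and V build the banded fibrils of connective tissue, which in brain lie in the meninges and around large vessels. Type IV collagen forms the sheet-like network of the basement membrane under endothelium and around pericytes. The other types link or cap fibrils (FACIT collagens), form beaded filaments (type VI), form hexagonal networks (type VIII) or span the cell membrane, as the neuronal type XXV chain does.

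Of the 42 genes, 13 reached an intensity of 100 in at least 2 of the 20 arrays. These were the fibrillar genes Col1a2, Col5a1 and Col27a1, the basement membrane genes Col4a1 and Col4a2, and 8 of the other class: Col6a1, Col6a2, Col8a1, Col8a2, Col9a3, Col16a1, Col19a1 and Col25a1. Only 6 of the 42 did so in all 20 arrays, namely Col1a2, Col27a1, Col4a1, Col4a2, Col6a2 and Col25a1. Of the remaining 29, Col5a2 reached 100 in KO_A-41 alone, and 28 genes reached 100 in no array. Near the threshold on the other side, Col16a1 reached 100 in 3 arrays. The mean of 18 genes lay below the median of all probe sets, 40.1, and for these a change could be hidden by background.

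No collagen gene passed an adjusted p of 0.05 in any comparison of groups (limma on log2 intensity over all 45037 probe sets, Benjamini-Hochberg, two-sided). Rank products, by which the study called genes, did call collagens, as given in the section on processing at the end. When aged and young wild-type mice were compared (WT_A against WT_Y), 0 of 42 passed where 0.264% of all probe sets did, and the unadjusted p was under 0.05 for 5 collagen genes, Col11a1, Col16a1, Col4a3, Col6a1 and Col6a2, 11.9% of the 42 against 7.62% of all probe sets. With age in Hsd11b1-/- mice (KO_A against KO_Y), 0 of 42 passed against 0.613% of all probe sets, with 5 at the unadjusted level, Col11a2, Col12a1, Col3a1, Col5a3 and Col6a1, 11.9% against 14.5% of all probe sets. Col6a1 was the only gene in both sets. Between young genotypes (KO_Y against WT_Y) the figures were 0 of 42 against 0.0488%, with Col11a2 and Col17a1 at the unadjusted level (4.76% against 5.29%). Between aged genotypes (KO_A against WT_A) they were 0 of 42 against 0.0111%, with Col12a1, Col13a1 and Col4a2 at the unadjusted level (7.14% against 11.0%). Between memory-impaired and unimpaired aged wild-type mice (WT_AI against WT_AU), 0 collagen genes passed and 0% of all probe sets did, and 0 collagen genes had an unadjusted p under 0.05, against 959 probe sets in all (2.13%). The difference of the age effects gave 0 of 42 against 0.0133%, with Col11a2, Col12a1, Col4a3 and Col9a3 at the unadjusted level (9.52% against 9.70%). The F test over the 5 groups gave 0 of 42 against 0.424%, with Col11a1, Col11a2, Col16a1 and Col6a1 at the unadjusted level (9.52% against 8.82%).

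In wild-type mice the median log2 change with age was 0.04 over the fibrillar genes, with 7 of 11 above 0, and 0.03 over the other collagens, with 13 of 25 above 0. The basement membrane genes had a median of -0.003, with 3 of 6 above 0, and all probe sets one of 0.007. In Hsd11b1-/- mice the medians were -0.05 for fibrillar genes (4 of 11 above 0), -0.11 for basement membrane genes (1 of 6) and -0.03 for the others (10 of 25), against -0.02 for all probe sets. Over the genes at 100 in at least 2 or at least 4 arrays, the median of the others in Hsd11b1-/- mice was 0.23 or 0.38. Basement membrane genes were also below 0 in 5 of 6 cases between KO_A and WT_A, with a median of -0.11 against -0.006 for all probe sets, and of -0.00347 with the leptomeningeal marker mean described below as a covariate. Averaged over its genes and centred on all 20 mice, the basement membrane class stood at -0.05 ± 0.014 in KO_A (log2, mean ± SEM, n = 4) and at 0.06 ± 0.014 in WT_AI, and between -0.02 and 0.02 in WT_Y, WT_AU and KO_Y. The SEM was 0.052 in WT_Y and 0.035 in WT_AU. Single mice ran from -0.16 to 0.08 in WT_Y and from -0.08 to 0.06 in WT_AU, overlapping both KO_A and WT_AI. KO_A against WT_AI was not among the comparisons tested. This average gives equal weight to Col4a3 to Col4a6, none of which reached 100. Between WT_AI and WT_AU these 4 differed by 0.15, 0.07, 0.10 and 0.08, whereas Col4a1 and Col4a2 differed by 0.02 and -0.02. The fibrillar class stood at -0.08 ± 0.051 in KO_A and 0.06 ± 0.054 in KO_Y, and the ranges of these 2 groups overlapped.

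**Figure D1:**
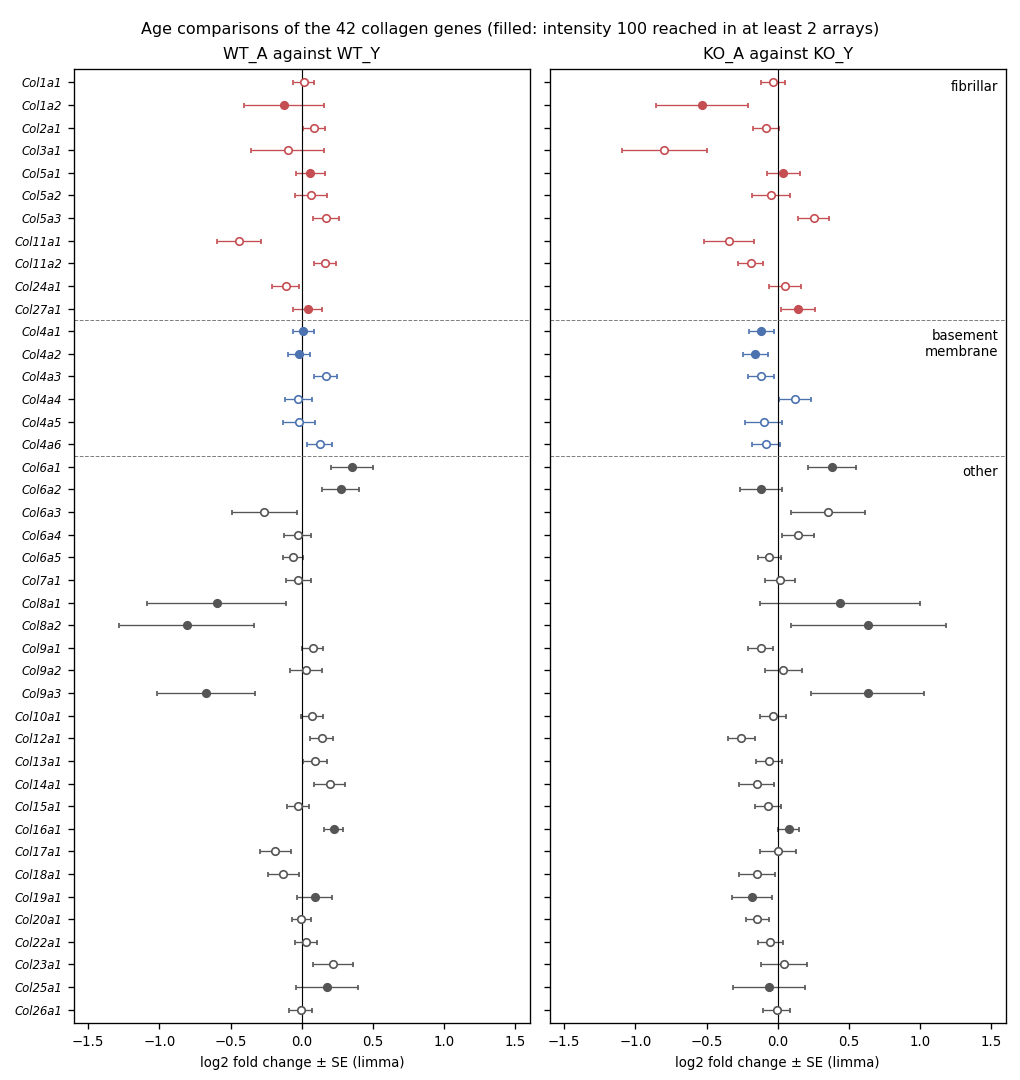
Log2 fold change with age (x axis, limma estimate ± SE) of the 42 collagen genes (y axis, by class) in wild-type mice (left, 8 aged against 4 young) and Hsd11b1-/- mice (right, 4 against 4). Filled points reached an intensity of 100 in at least 2 arrays. Most genes lie near 0, and Col8a1, Col8a2 and Col9a3 lie below 0 on the left and above 0 on the right.

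Of the fibrillar genes, Col1a2 and Col3a1 varied most with the sample. Col1a2 encodes the second chain of type I collagen. Its intensity was 395.6, 139.5, 335.8 and 319.0 in WT_Y, 394.4, 240.1, 219.7 and 212.1 in WT_AU, and 144.9, 294.4, 396.0 and 233.8 in WT_AI. In Hsd11b1-/- mice it was 290.9, 250.2, 232.8 and 346.1 in KO_Y and 146.5, 130.0, 248.2 and 284.6 in KO_A. Low values occurred in WT_Y, WT_AI and KO_A alike and all groups overlapped. The log2 change with age was -0.13 ± SE 0.28 in wild-type mice (adjusted p = 0.965, limma) and -0.53 ± 0.32 in Hsd11b1-/- mice (adjusted p = 0.466).

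Col3a1, the single chain of type III collagen, which shares fibrils with type I, was lower on the array and reached 100 in no sample. Its intensity was 53.0, 22.9, 53.1 and 45.7 in WT_Y, and 24.9 to 63.1 over the 8 WT_A mice. In KO_Y it was 45.4, 34.0, 43.4 and 73.2, and in KO_A 27.3, 19.7, 25.0 and 40.0. All 4 KO_A mice lay below the KO_Y mean, but the groups overlapped through KO_A-223. The log2 change with age was -0.10 ± 0.26 in wild-type (adjusted p = 0.970, limma) and -0.80 ± 0.30 in Hsd11b1-/- mice (adjusted p = 0.230, exact permutation p = 0.0571). The other Col3a1 probe set, of mean intensity 9.6, gave 0.02 in Hsd11b1-/- mice.

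Within groups, Col1a2 varied with the markers of leptomeningeal fibroblasts, the collagen-making cells of the brain's inner coverings. The 13 markers, among them Slc6a13, Aldh1a2, Dcn, Lum and Ogn, hold no collagen, and 9 of the 13 reached 100 in at least 2 arrays. Their summed intensity was 1630 to 3400 in WT_Y, 3036 to 4782 in WT_AU, 2573 to 4086 in WT_AI, 2084 to 3067 in KO_Y and 1441 to 3238 in KO_A. With group means subtracted, Col1a2 and the mean log2 of these markers had r = 0.959 (permutation p = 1e-05, the smallest the permutations can give, adjusted p = 0.000227 over 91 relations) and Spearman's rho = 0.949 over 20 mice. Without WT_Y-371 and WT_AI-14, r was 0.949. Col1a2 also varied with the 6 smooth muscle markers, at r = 0.688 (adjusted p = 0.0945, permutation) and rho = 0.734 (adjusted p = 0.0160, permutation, 20 mice). In a bulk sample, fewer cells of a type and less RNA per cell cannot be told apart. The genes most like Col1a2 over the 20 mice, of 9878 genes compared, were Slc6a13 (r = 0.949), Fmod (0.943), Aldh1a2 (0.933), Slc6a20a (0.922) and Slc22a8 (0.914). Fmod encodes the fibril-binding proteoglycan fibromodulin. Col3a1 had r = 0.873 with Col1a2.

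The marker list had 12 of its 13 genes above 0 with age in wild-type mice (median log2 change 0.37, 0 passed) and a median of -0.02 in Hsd11b1-/- mice. Col1a2 did not share that direction. From these same arrays, the paper reports the markers Aldh1a2 and Slc6a13 as raised with age in wild-type but not Hsd11b1-/- mice. Their log2 changes in wild-type mice were 0.89 and 0.64. The marker mean was thus not independent of age in wild-type mice. With the marker mean as a covariate in limma, Col1a2 was lower in aged mice by a log2 value of -0.63 ± SE 0.10 in wild-type (adjusted p = 0.00525) and -0.53 ± 0.10 in Hsd11b1-/- mice (adjusted p = 0.0198). The call in Hsd11b1-/- mice was lost when smooth muscle markers were added, as given below. The fit with the leptomeningeal markers passed 0.244% and 0.819% of all probe sets in the 2 comparisons. Col3a1 was -0.53 ± 0.14 in wild-type (adjusted p = 0.163) and -0.79 ± 0.15 in Hsd11b1-/- mice (adjusted p = 0.0145). The smooth muscle markers were lower in KO_A than in KO_Y for 5 of 6 genes (median log2 change -0.27), among them Acta2, which passed. With both marker means as covariates, Col1a2 was -0.72 ± SE 0.10 in wild-type (adjusted p = 0.00192, limma) and -0.27 ± 0.15 in Hsd11b1-/- mice (adjusted p = 0.778), and Col3a1 -0.62 ± 0.15 (adjusted p = 0.141) and -0.53 ± 0.22 (adjusted p = 0.688). That fit passed 0.149% and 0% of all probe sets. With the smooth muscle mean alone, Col1a2 was -0.66 ± 0.25 in wild-type (adjusted p = 0.619, limma) and 0.43 ± 0.34 in Hsd11b1-/- mice (adjusted p = 0.731), and Col3a1 was -0.57 ± 0.24 (adjusted p = 0.690) and 0.05 ± 0.33 (adjusted p = 0.974), so in Hsd11b1-/- mice neither size nor sign was independent of the markers used. With the leptomeningeal markers alone, the difference of the age effects between genotypes did not pass for either gene (Col1a2 0.10 ± 0.14, adjusted p = 0.803, and Col3a1 -0.26 ± 0.20, adjusted p = 0.613, limma).

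Set against the marker mean of the same mouse, log2 Col1a2 was 1.23 to 1.71 in WT_Y and 0.57 to 1.45 in WT_A, a difference of means of -0.49 (exact permutation p = 0.00404, two-sided). The marker mean was higher in aged wild-type mice, so the same subtraction gave a median of -0.36 over all probe sets, with 99.2% below 0, and of -0.34 over the 42 collagens, with 42 below 0. Among the 13 collagens at 100 in at least 2 arrays, Col8a1 (-0.96), Col8a2 (-1.18) and Col9a3 (-1.04) were more negative than Col1a2. The subtraction is the same for every gene. Of the dimmer collagens, Col11a1, Col6a3, Col17a1 and Col18a1 were therefore also more negative. Their log2 changes before it were -0.44, -0.26, -0.19 and -0.129, against -0.125 for Col1a2. Of the 8 aged wild-type mice, 7 lay below every young mouse and WT_AI-49 lay within the young range. In Hsd11b1-/- mice the values were 1.66, 1.49, 1.40 and 1.57 when young and 0.88, 0.96, 1.06 and 1.09 when aged, and the groups did not overlap (exact permutation p = 0.0286, the smallest possible for 4 against 4). For Col3a1 the same quantity was -1.38 to -1.13 in WT_Y and -1.97 to -1.48 in WT_A, which did not overlap (exact permutation p = 0.00202, the smallest possible for 8 against 4). It was -1.39 to -0.67 in KO_Y and -2.25 to -1.54 in KO_A, again apart (exact permutation p = 0.0286). Groups were apart on this measure for 2 of the 42 collagens in wild-type mice, Col3a1 and Col9a3, against 0.626% of all probe sets. In Hsd11b1-/- mice they were apart for 2, Col1a2 and Col3a1, against 0.520%, where the median over all probe sets was -0.01. Without the subtraction the shares were 1.08% and 6.06%. The subtraction adds the spread of the marker mean to probe sets that do not follow the markers. These shares are thus no like yardstick for Col1a2, which followed them. The 2 memory groups did not separate, with WT_AU at 0.88 to 1.17 and WT_AI at 0.57 to 1.45 for Col1a2. Such a value shows an unequal change of the collagen and the markers and not which of them changed. In wild-type mice the mean of the markers differed between ages, at 6.63 in WT_Y against 7.03 in WT_AU and 6.96 in WT_AI, whereas in Hsd11b1-/- mice it was 6.58 at both ages. Single KO_A mice ran from 6.06 to 7.06, and none lay within the KO_Y range of 6.47 to 6.87. Some aged wild-type mice, up to 7.46, lay above every young mouse. The covariate fits therefore compare ages partly by extending the fitted slope. Against the 13 markers one at a time, Col1a2 was lower with age against 12 in wild-type (all but Slc47a1) and against 13 in Hsd11b1-/- mice. These counts restate group means and are no separate test. In wild-type mice Col1a2 changed by -0.13, and only Slc47a1 fell further (-0.19). In Hsd11b1-/- mice Col1a2 changed by -0.53 and the lowest marker, Dcn, by -0.50. The wild-type difference ran from -1.09 against Ogn to 0.06 against Slc47a1. A second Col1a2 probe set, of mean intensity 34.1, gave -0.40 (adjusted p = 0.332) and -0.50 (adjusted p = 0.0940) in the covariate fit of limma. Col1a1, the partner chain, gave -0.08 and -0.03, at an intensity of 33.4 to 43.1 in every mouse. Leaving out 1 mouse at a time kept Col1a2 past the threshold in 20 of 20 fits in wild-type and 16 of 20 in Hsd11b1-/- mice (adjusted p up to 0.0888), where it was lost without KO_A-222, KO_A-223, KO_Y-575 or KO_Y-578. Col3a1 in Hsd11b1-/- mice was also kept in 16 of 20, and was lost without KO_A-222, KO_A-223, KO_Y-575 or KO_Y-580 (adjusted p up to 0.0553).

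**Figure D2:**
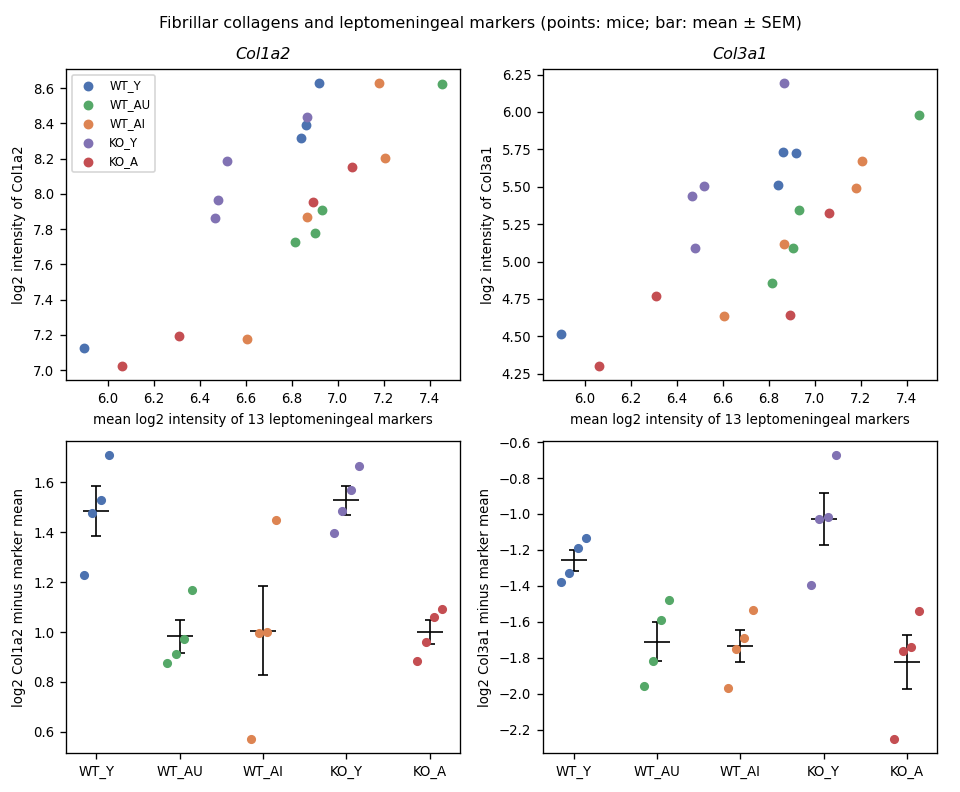
Top, log2 intensity of Col1a2 (left) and Col3a1 (right) against the mean log2 intensity of 13 leptomeningeal markers, 1 point per mouse, coloured by group. Bottom, log2 collagen minus the marker mean by group, with points for mice and bars for mean ± SEM (n = 4). In the bottom panels the aged mice lie below the young mice of their genotype, except WT_AI-49 for Col1a2. In the top panels no KO_A mouse lies within the KO_Y range of marker means, 6.47 to 6.87.

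Col1a2 and Col3a1 are shown by the 250 bases before their RefSeq start (GRCm38.p6), with 3 motifs in capitals: CCAAT, the box bound by NF-Y and long known in the type I collagen promoter, TATAAA and GGGCGG, the GC box, each searched on both strands. Col1a2 lies at chr6:4505368-4505617, plus strand, and Col3a1 at chr1:45311288-45311537, plus strand.
Col1a2: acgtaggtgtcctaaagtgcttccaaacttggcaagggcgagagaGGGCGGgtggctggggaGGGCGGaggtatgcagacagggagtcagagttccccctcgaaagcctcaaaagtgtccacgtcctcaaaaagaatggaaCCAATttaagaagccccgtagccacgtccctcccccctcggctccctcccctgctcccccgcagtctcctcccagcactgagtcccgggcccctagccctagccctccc
Col3a1: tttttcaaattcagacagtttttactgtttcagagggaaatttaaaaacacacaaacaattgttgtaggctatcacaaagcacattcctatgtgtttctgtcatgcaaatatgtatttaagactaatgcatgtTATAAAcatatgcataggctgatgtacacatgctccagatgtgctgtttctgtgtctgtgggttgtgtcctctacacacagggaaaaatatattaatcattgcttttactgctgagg
The Col1a2 window held 1 CCAAT and 2 GGGCGG and no TATAAA, and the Col3a1 window held 1 TATAAA and neither of the others. Over 32851 windows of this length, 33.8% held CCAAT, 12.4% TATAAA and 32.7% GGGCGG, and of the 36 windows of the 33 collagen genes listed the shares were 36.1%, 13.9% and 58.3%. No motif overlapped another kind in these windows.

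Col5a1, a chain of type V collagen that sets fibril width, was 92.9 ± 7.7 in WT_Y, 96.3 ± 2.7 in WT_A, 93.8 ± 4.3 in KO_Y and 97.1 ± 7.5 in KO_A (mean ± SEM, n = 4, and 8 for WT_A). Col27a1, a cartilage-type fibrillar collagen, was 117.1, 118.5, 127.8 and 130.0 in KO_Y and 130.9, 139.4, 143.4 and 130.1 in KO_A. The 2 groups did not overlap, by a margin of 0.1 (log2 change 0.14 ± 0.12, adjusted p = 0.612, limma). Col5a3, another type V chain, was 31.8 to 35.9 in KO_Y and 38.9 to 42.2 in KO_A and also did not overlap (0.25 ± 0.11, adjusted p = 0.294, limma). Groups did not overlap for 3 of 42 collagen genes in this comparison (7.14%), Col5a3, Col27a1 and Col11a2, where 6.06% of all probe sets did so. In the other 4 comparisons of groups, no collagen gene had groups apart, where 1.08% (WT_A against WT_Y), 2.68% (KO_Y against WT_Y), 0.897% (KO_A against WT_A) and 1.77% (WT_AI against WT_AU) of all probe sets did.

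The type XI genes form the core of thin fibrils. Col11a1 was 56.9, 59.3, 46.9 and 40.4 in WT_Y and 23.5 to 50.7 in WT_A (log2 change -0.44 ± 0.15, adjusted p = 0.423, limma, with 7 of 8 aged mice below the young mean). It was 47.4 to 59.6 in KO_Y and 39.6 to 51.2 in KO_A (-0.34 ± 0.18, adjusted p = 0.383, limma), and its second probe set gave -0.46 and -0.40. Col11a2 was 46.6, 55.1, 38.2 and 37.7 in WT_Y and 58.0, 53.8, 56.2 and 55.1 in KO_Y. WT_Y-371 alone reached into the KO_Y range (0.35 ± 0.09, adjusted p = 0.618, limma, exact permutation p = 0.0857). Without that mouse the change was 0.46 and passed (adjusted p = 0.0133, limma), the only collagen gene to do so on leaving out 1 mouse. In KO_A Col11a2 was 45.5 to 52.0, below all KO_Y mice (-0.19 ± 0.09, adjusted p = 0.333, limma).

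Of the basement membrane genes, Col4a1 and Col4a2, whose chains form the common type IV trimer, varied little, the highest of the 20 mice being 1.36 and 1.40 times the lowest. Col4a1 was 240.8, 203.3, 215.5 and 205.8 in WT_Y, 186.8 to 235.2 in WT_A, 237.4, 214.5, 214.1 and 211.1 in KO_Y, and 221.2, 227.6, 177.7 and 186.9 in KO_A. The groups overlapped throughout, and the log2 change with age was 0.01 ± 0.08 in wild-type and -0.12 ± 0.09 in Hsd11b1-/- mice. Col4a2 was 162.2 to 200.6 in WT_Y, 172.5 to 201.3 in WT_A, 163.7 to 194.1 in KO_Y, and 188.6, 174.7, 143.4 and 155.3 in KO_A. KO_A-222 and KO_A-223 had the lowest values of both genes within KO_A, and KO_A was lower than WT_A for Col4a2 by a log2 value of -0.16 ± 0.08 (adjusted p = 0.446, limma, exact permutation p = 0.0465). Col4a1 and Col4a2 had r = 0.635 over the 20 mice with group means subtracted (permutation p = 0.0188, adjusted p = 0.0376 over 8 pairs, rho = 0.592). Their RefSeq starts lie head to head, and the 300-base windows around them share 78 bases on opposite strands. Rnf111 (r = 0.870), Smad4 (0.835), Tpst1 (0.834), Baz2a (0.832) and Map3k4 (0.831) were the genes most like Col4a1.

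Vascular markers were read beside the type IV genes. The summed intensity of 11 endothelial markers was 2918 to 3404 in WT_Y and 2470 to 3483 in KO_A, with none passing in the age comparisons. The 6 smooth muscle markers summed to 566 to 682 in KO_A and to at least 684 in each mouse of the other groups. Among them Acta2, smooth muscle actin, was 129 to 226 in KO_A against 280.0 to 397 in KO_Y (log2 change -1.02 ± 0.21, adjusted p = 0.0271, limma) and was also lower than in WT_A (adjusted p = 0.00892). The correlation of Col4a1 with the endothelial markers (r = 0.601, rho = 0.642) did not pass over the 91 relations, nor did that of Col4a1 (r = 0.267) or Col4a2 (r = -0.03) with the smooth muscle markers. Of the 4 chains with a more restricted distribution, Col4a3 to Col4a6, none reached 100. Col4a3, at 20.4 to 28.9, had log2 changes with age of 0.17 ± 0.08 in wild-type and -0.12 ± 0.09 in Hsd11b1-/- mice (difference -0.28, adjusted p = 0.480, limma).

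Among the other collagens, Col6a1 and Col6a2 encode chains of the type VI beaded filament, which anchors cells to matrix. Col6a1 was 115.8, 98.2, 111.3 and 175.1 in WT_Y, 156.6, 141.1, 147.7 and 163.3 in WT_AU, and 163.2, 176.1, 166.1 and 134.6 in WT_AI. All 8 aged wild-type mice lay above the young mean on the log2 scale, and WT_Y-374 alone of the young lay among them (0.35 ± 0.15, adjusted p = 0.569, limma, exact permutation p = 0.0283). It was 92.7, 100.3, 98.4 and 133.4 in KO_Y and 186.8, 98.2, 135.9 and 140.6 in KO_A, with 3 of 4 aged mice above all young mice (0.38 ± 0.17, adjusted p = 0.314, limma, exact permutation p = 0.143). Col6a2 was 112.9 to 203.2 in WT_Y and 152.7 to 195.2 in WT_A, and again 8 of 8 aged mice exceeded the young mean (0.27 ± 0.13, adjusted p = 0.642, limma, exact permutation p = 0.0869). All 8 also exceeded it for Col11a2, Col14a1, Col16a1 and Col23a1, and the share over all probe sets is not given here. In Hsd11b1-/- mice Col6a2 did not follow Col6a1, with 138.8 to 183.2 in KO_Y and 116.9 to 171.4 in KO_A (-0.12 ± 0.15, adjusted p = 0.754, limma). The 2 genes, neighbours on their chromosome, had r = 0.825 over the 20 mice with group means subtracted (permutation p = 0.000900, adjusted p = 0.00240 over 8 pairs, rho = 0.827). Adjacent genes did not always pair so, since Col3a1 and Col5a2 had r = 0.401 and Col9a1 and Col19a1 had r = -0.07. Fitted with the leptomeningeal marker mean, the age value of Col6a1 was 0.23 in wild-type and 0.38 in Hsd11b1-/- mice (adjusted p = 0.759 and 0.267, limma).

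The type VIII genes and Col9a3, a type IX chain, spread most widely between mice. Col8a1 was 181.0, 40.9, 161.3 and 213.9 in WT_Y, 41.9 to 174.1 in WT_A, 76.5, 151.3, 43.9 and 42.2 in KO_Y, and 35.1, 105.5, 125.2 and 155.0 in KO_A. Col8a2 was 150.8, 32.2, 113.9 and 174.6 in WT_Y, 28.2 to 112.8 in WT_A, 59.3, 105.7, 29.5 and 42.9 in KO_Y, and 29.1, 98.6, 116.5 and 138.4 in KO_A. Every group held mice with low and with high values, and the groups overlapped. Col9a3 was 249.7, 109.0, 193.3 and 292.0 in WT_Y, a mean of 134.7 ± SEM 20.3 in the 8 WT_A mice, 129.8, 158.3, 79.0 and 96.3 in KO_Y, and 81.7, 200.7, 208.0 and 264.4 in KO_A. With age the log2 values were -0.60 ± 0.49, -0.81 ± 0.47 and -0.67 ± 0.34 in wild-type mice for Col8a1, Col8a2 and Col9a3. In Hsd11b1-/- mice they were 0.44 ± 0.56, 0.64 ± 0.55 and 0.63 ± 0.40, and the difference between genotypes did not pass (Col9a3 1.31 ± 0.52, adjusted p = 0.458, limma).

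These 3 genes followed the choroid plexus markers, genes of the epithelium that makes cerebrospinal fluid in the ventricle beside the hippocampus. The 9 markers include Ttr, Folr1, Kl and Aqp1, and 8 of 9 reached 100 in at least 2 arrays. Their summed intensity was 9007 to 24974 in WT_Y, 4391 to 21476 in WT_AU, 4280.0 to 22700 in WT_AI, 1389 to 21958 in KO_Y and 6931 to 22790.3 in KO_A. With group means subtracted, r with the marker mean was 0.966 for Col8a1, 0.965 for Col8a2 and 0.950 for Col9a3 (each permutation p = 1e-05, the smallest possible, adjusted p = 0.000227 over 91 relations, 20 mice). All 9 markers were below 0 with age in wild-type mice (median -1.11) and above 0 in Hsd11b1-/- mice (median 1.03), and none passed. With the choroid plexus marker mean as a covariate, the wild-type age values became 0.19, -0.05 and -0.13 and the values for KO_Y against WT_Y 0.13, 0.09 and -0.12, for Col8a1, Col8a2 and Col9a3. Without it the values for KO_Y against WT_Y were -0.89, -0.90 and -0.82. The values with this covariate for KO_A against KO_Y and for the difference of age effects are not given here. In those fits 0 collagen genes passed, against 0.28% and 0.0111% of all probe sets (limma). Col8a1 and Col8a2, the 2 chains of type VIII collagen, had r = 0.980 with each other (adjusted p = 8e-05 over 8 pairs, permutation) although they lie on different chromosomes, and Col8a2 and Col9a3 had r = 0.963.

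**Figure D3:**
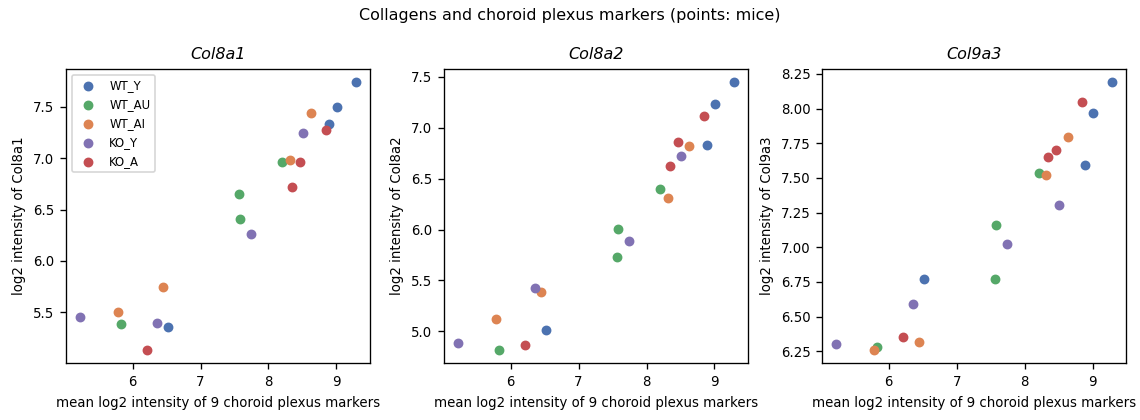
Log2 intensity of Col8a1, Col8a2 and Col9a3 (y axes) against the mean log2 intensity of 9 choroid plexus markers (x axis), 1 point per mouse, coloured by group. In each panel the collagen rises with the markers across mice of all 5 groups (r within groups 0.950 to 0.966).

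The 250 bases before the RefSeq starts of this pair are shown because these genes had the highest r of the 8 pairs, with the same 3 motifs in capitals on either strand. Col8a1 lies at chr16:57754738-57754987, minus strand, and Col8a2 at chr4:126286544-126286793, plus strand (GRCm38.p6).
Col8a1: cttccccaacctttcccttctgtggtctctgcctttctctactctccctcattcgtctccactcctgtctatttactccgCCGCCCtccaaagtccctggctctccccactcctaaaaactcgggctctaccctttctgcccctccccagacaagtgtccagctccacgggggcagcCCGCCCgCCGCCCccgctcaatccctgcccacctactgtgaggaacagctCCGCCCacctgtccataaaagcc
Col8a2: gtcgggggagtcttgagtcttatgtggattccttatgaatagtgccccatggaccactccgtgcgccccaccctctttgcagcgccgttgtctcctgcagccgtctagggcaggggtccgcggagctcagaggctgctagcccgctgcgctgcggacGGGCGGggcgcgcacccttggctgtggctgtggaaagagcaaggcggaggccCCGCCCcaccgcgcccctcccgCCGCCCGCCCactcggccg
Each window held 4 GC boxes on either strand, the last 2 of Col8a2 overlapping, and neither CCAAT nor TATAAA.

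Of the collagens that cap or link fibrils, Col16a1 had the smallest p with age in wild-type mice. It was 80.8, 86.7, 82.7 and 77.0 in WT_Y and 82.4 to 102.8 in WT_A, with 8 of 8 aged mice above the young mean (log2 change 0.22 ± 0.07, adjusted p = 0.282, limma, exact permutation p = 0.00808). In Hsd11b1-/- mice it was 80.8 to 93.1 when young and 84.7 to 105.6 when aged (0.08 ± 0.08, adjusted p = 0.682, limma). Col12a1, which reached 100 in no array, had the smallest p in Hsd11b1-/- mice, with 61.7 to 72.1 in KO_Y and 46.4 to 63.2 in KO_A (-0.26 ± 0.10, adjusted p = 0.222, limma). Its value in wild-type mice was 0.14 ± 0.08 and the difference between genotypes -0.40 ± 0.13 (adjusted p = 0.412, limma). None of its 3 other probe sets followed it (r with group means subtracted 0.15 or less). Col19a1, a FACIT chain made by some forebrain neurons, was 119.3 to 178.2 in WT_A and 98.0 to 163.8 in KO_A, both spanning the young ranges.

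Col25a1, a transmembrane collagen of neurons found in amyloid plaques, was 422.7, 524.8, 448.3 and 169.9 in WT_Y. It was 339.9 to 440.8 in WT_A, 405.2, 382.4, 346.3 and 296.7 in KO_Y, and 437.4, 450.8, 263.9 and 257.9 in KO_A. WT_Y-374, with the highest Alb, had the lowest value of all. The log2 change with age was 0.18 ± 0.22 in wild-type and -0.06 ± 0.25 in Hsd11b1-/- mice (adjusted p = 0.920 and 0.935, limma). Its correlation with the hippocampal neuron markers was r = 0.745 (permutation p = 0.0134, rho = 0.708), where r did not pass over the 91 relations (adjusted p = 0.156) and rho did (adjusted p = 0.0234). Without the 2 mice farthest from the median, WT_Y-374 and KO_A-223, r was 0.505. The genes most like it were Pik3r4 (r = 0.958), Hnrnpa0 (0.949), Wdr37 (0.948), Coro1c (0.931) and Pds5b (0.931). A second Col25a1 probe set, of mean intensity 101.5, had r = -0.10 with the first.

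**Figure D4:**
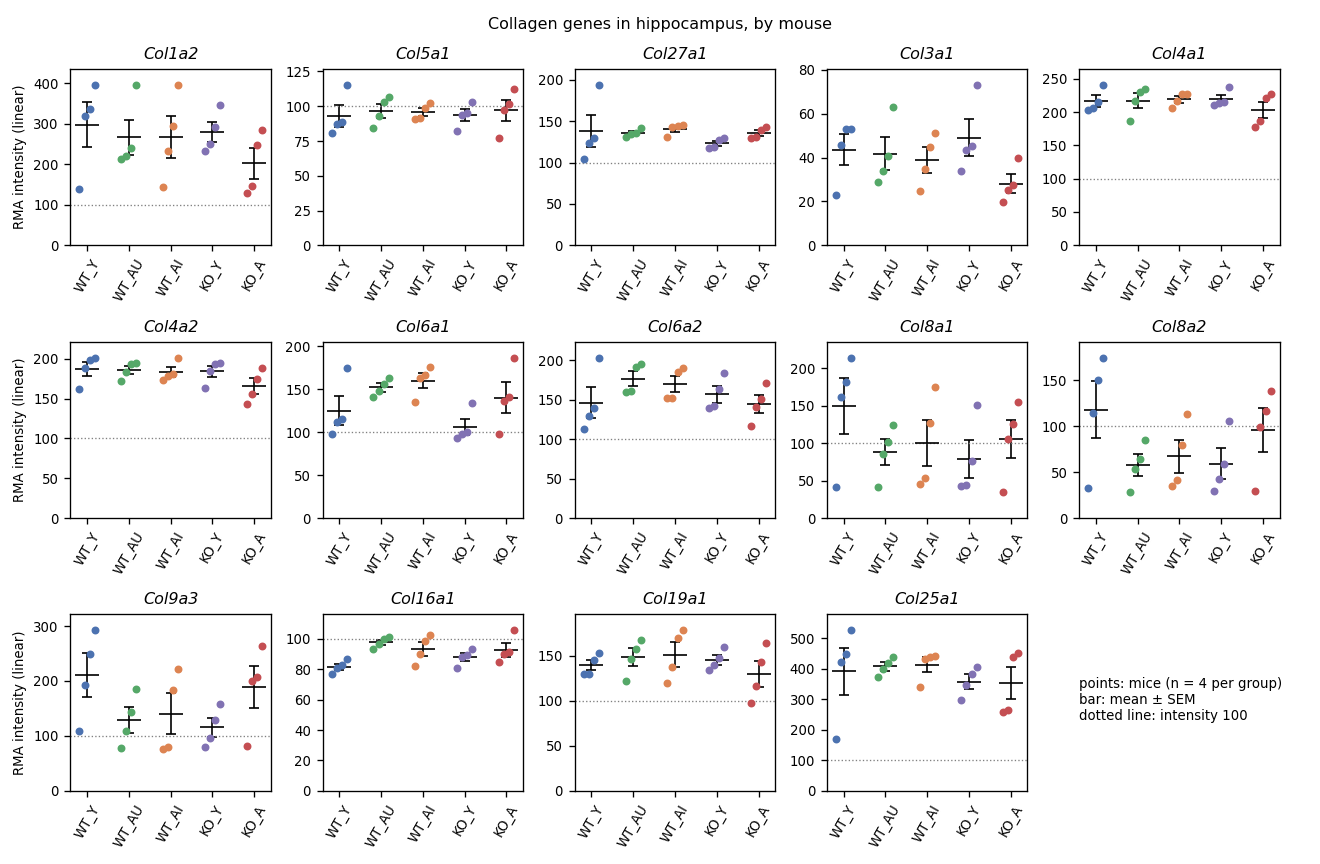
Intensity (y axis, linear scale from 0) of the 13 collagen genes that reached 100 in at least 2 arrays, and of Col3a1, by group (x axis). Points are mice, bars mean ± SEM (n = 4) and the dotted line marks 100. Col4a1 and Col4a2 vary little, whereas Col8a1 and Col8a2 vary several-fold within groups, and Col1a2 and Col9a3 less so.

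The genes that make, break down and bind collagen were read alongside. Of 25 measured genes of collagen synthesis and processing, none passed in either age comparison. The smallest p values were those of Colgalt1 (log2 change 0.17), Lox (0.22) and P3h2 (-0.18) in wild-type mice and of P4hb (0.27, adjusted p = 0.0798, limma), P3h4 (0.37) and Adamts3 (-0.42) in Hsd11b1-/- mice. P4hb is the shared subunit of prolyl 4-hydroxylase, and Lox cross-links collagen. Of 13 genes of collagen breakdown none passed, and Timp1 and Timp4, inhibitors of matrix metalloproteinases, gave 0.44 for Timp1 in wild-type mice and 0.38 for Timp1 and 0.54 for Timp4 in Hsd11b1-/- mice (adjusted p = 0.488, 0.367 and 0.0974, limma). Timp3 (0.18) and Fap (-0.61) in wild-type mice and Mmp14 (0.17) in Hsd11b1-/- mice were the others of smallest p.

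Of 9 measured collagen receptors 1 rose, in KO_A against KO_Y, where 0.613% of all probe sets passed. Lair1, an inhibitory receptor of leukocytes, was 34.3 to 39.7 in KO_Y and 52.6 to 80.4 in KO_A (log2 change 0.89 ± 0.14, adjusted p = 0.00739, limma), and the groups did not overlap. In wild-type mice it was 41.7 to 44.1 when young and 42.4 to 73.4 when aged (0.36 ± 0.13, adjusted p = 0.421, limma). The difference of the age effects of Lair1 between genotypes did not pass (adjusted p = 0.434, limma), and Lair1 reached 100 in no array. Ddr1 (-0.22 in wild-type and 0.12 in Hsd11b1-/- mice), Adgrg1 (0.13 in wild-type) and Itgb1 (0.14 in Hsd11b1-/- mice) did not pass. Of 15 basement membrane partners none passed, with Agrn (-0.15), Nid2 (-0.26) and Lamb3 (0.20) of smallest p in wild-type mice and Sparc (0.44), Agrn (-0.19) and Lamb1 (-0.24) in Hsd11b1-/- mice. Of 12 fibril partners none passed, and 10 of 12 were above 0 with age in wild-type mice (median 0.23) and 3 of 12 in Hsd11b1-/- mice (median -0.17). Ogn (0.97), Tnxb (0.25) and Postn (-0.51) had the smallest p in wild-type mice, and Fbln2 (-0.20), Fn1 (-0.27) and Dcn (-0.50) in Hsd11b1-/- mice. Dcn, Lum and Ogn of this list are also leptomeningeal markers above.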

How the data were processed

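Array data of 20 hippocampal samples were used. The authors deposited intensity values on the linear scale for 45037 probe sets, made from the scanned arrays by robust multichip averaging, which subtracts background and normalises (affy package, R 2.8.0 per the submitters' processing notes). Array number limits the precision. Gene symbols came from the platform annotation, where 34945 probe sets had 1 symbol, 932 several and 9160 none. Groups were those of the labels, and no column was left unassigned. Separate mice are biological replicates.

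Here log2 intensity of all probe sets was fitted with limma 3.58.1 (R 4.3.3) as 5 group means, with no intensity filter, empirical Bayes, 6 contrasts and an F test, and Benjamini-Hochberg adjustment at 0.05. In simulated data for WT_A against WT_Y over 45037 probe sets, 84 of 100 probe sets changed 1.5-fold and 100 of 100 changed 2-fold were recovered, with 13 unchanged ones passing. The changed probe sets were drawn only from those at 100 in at least 2 arrays, with independent noise. The recovery therefore does not cover the 29 collagens below that level, or comparisons of 4 against 4 mice. Exact permutation tests compared single genes. Correlations used 100000 permutations within groups (Python 3.11.15, scipy 1.17.1, numpy 2.4.6, pandas 2.3.3). Marker lists and partner lists were matched by symbol. Genes named were those reaching 100 in at least 2 arrays, those passing a test and the 3 of smallest p in a comparison or partner list.

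The collagen genes, the lists and the tests were chosen with earlier results of these data known. The leptomeningeal marker covariate was an alternative to these fits, and the subtraction of the marker mean, the single markers, the choroid plexus and smooth muscle covariates, the subtraction over all probe sets and the fits without 1 mouse each under a covariate were added after seeing the data. Other alternatives were intensity filters, groups fitted alone, array weights, a trend with robust estimation, centring on array medians, averaging each gene over its probe sets, leaving out the 2 WT_Y mice of highest Alb, leaving out each mouse, and rank products with 50 permutations and a change of 1.5-fold. The study used both limma and rank products, and called genes at a rank product p under 0.05.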

Additional observations from a re-analysis of the deposited data

Results flagged for a closer look

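In 70 groups of 4 mice (14 collagen genes in 5 groups), 3 single mice stood far from the rest of their group, where chance gives about 1 in 20. Col25a1 was 339.9 in WT_AI-51 against 431.9 to 440.8 in the other 3. Col4a1 was 237.4 in KO_Y-575 against 211.1 to 214.5. Col8a1 was 40.9 in WT_Y-371 against 161.3 to 213.9, and this mouse also had the lowest leptomeningeal marker mean of WT_Y (5.90) and the lowest choroid plexus marker mean of WT_Y (6.52).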

How the results depend on the processing

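Over the alternatives tried, the count of collagen genes passing was 0 in 199 cases, as in the results given, and above 0 in 13. With the leptomeningeal marker mean as a covariate, 1 passed with age in wild-type mice (Col1a2, against 0.244% of all probe sets). In Hsd11b1-/- mice 2 passed (against 0.819%), as did 2 in the F test (Col1a2 and Col3a1 in each). The share of all probe sets in that F test is not given here. Leaving out each mouse in turn gave 0 to 1 for KO_Y against WT_Y and 0 to 1 for the F test, the 1 being Col11a2 without WT_Y-371. That mouse was the only one of WT_Y within the KO_Y range of Col11a2, and the shares of all probe sets in these fits are not given here. At an unadjusted p, which allows for no multiple testing, 5 passed for WT_A against WT_Y (7.62% of all probe sets did), 5 for KO_A against KO_Y (14.5%), 2 for KO_Y against WT_Y (5.29%), 3 for KO_A against WT_A (11.0%) and 4 for the difference of age effects (9.70%). Rank products, which do not use the spread within groups, called 3 with age in wild-type mice (Col8a1, Col8a2 and Col9a3, lower, against 0.728% of all probe sets), 3 in Hsd11b1-/- mice (Col3a1 lower, Col8a2 and Col9a3 higher, against 0.753%) and 3 for KO_Y against WT_Y (Col8a1, Col8a2 and Col9a3, against 0.495%). The rank product p was unadjusted. It treated all pairs of mice between groups as independent although pairs shared mice, so it is too small. Col8a1, Col8a2 and Col9a3 are the genes that followed the choroid plexus markers above.

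For the collagen genes of an unadjusted p under 0.05, 518 values kept their direction and side of the threshold and 2 came to pass, Col11a2 (above) and Col3a1 in Hsd11b1-/- mice with the covariate. With the covariate, Col3a1 also passed in wild-type mice without KO_A-222 (-0.57, adjusted p = 0.0326, limma). With the smooth muscle marker mean in place of the leptomeningeal one, the values in Hsd11b1-/- mice changed sign, to 0.43 for Col1a2 and 0.0493 for Col3a1, and the Col1a2 value in wild-type mice no longer passed (-0.66). With both, the calls in Hsd11b1-/- mice were lost and that of Col1a2 in wild-type mice was kept. Class medians of log2 change moved by less than the spread between mice in 455 cases and by more in 13, and the cause was not tested. Without the 2 WT_Y mice of highest Alb the basement membrane median was 0.12 for WT_A against WT_Y, 0.11 for KO_Y against WT_Y and -0.24 for the difference of age effects, and the fibrillar median of that difference was -0.16. With each mouse left out (WT_Y-369 giving the highest values) the basement membrane median was -0.0188 to 0.0711 for WT_A against WT_Y and -0.0335 to 0.0741 for KO_Y against WT_Y. Counting only genes at 100 in at least 2 or at least 4 arrays, the median of the other collagens was 0.23 or 0.38 for KO_A against KO_Y, and -0.22 for KO_Y against WT_Y with 4 arrays. The basement membrane median was -0.00347 for KO_A against WT_A with the covariate. For WT_AI against WT_AU it was 0.07 in the main fit, -0.00246 under either filter and -0.00299 after averaging probe sets. No paired analysis was possible because the mice carry no number shared between groups.

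With 4 mice per group an exact permutation test cannot go below 0.0286, and 8 against 4 not below 0.00202. Genes near the array background had little room to change, so 0 passing among them says little. Cell counts and blood content were not analysed here, and the part of tissue composition in any difference was not tested.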
